A study of Mus musculus with 8 samples.

Results

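The genes described here are the 9 mouse genes that make, release, receive or trap the hedgehog signal at the cell surface. They are the ligand genes Shh, Ihh and Dhh, the ligand release gene Disp1, the receptor gene Ptch1, the decoy receptor gene Hhip and the co-receptor genes Cdon, Boc and Gas1. They were taken by symbol from a table of 23337 genes, and all 9 were found. RNA was sequenced from kidneys of E13.5 mouse embryos, at mid-gestation, on a mixed C57BL/6 background, with 4 libraries in each of 2 groups. Mutant kidneys had the genotype Foxd1Cre;Smo(flox/-). Control kidneys had the genotype Smo(flox/+), carried no Cre by their label, and are called wild type in the submitters' source names. Both groups therefore carried a floxed copy of Smo, which encodes Smoothened, the membrane protein that transmits the signal. The other Smo copy of the mutants was null, in all of their cells and not in stroma alone, and a difference between groups therefore belongs to the whole genotype, Cre allele included. Foxd1Cre expresses Cre recombinase in the progenitors of the renal stroma, and not in the ureteric epithelium, and which Foxd1Cre allele was used is not stated in the labels. The labels do not say whether kidneys of several embryos were pooled or whether samples came from separate litters, so p-values measure the spread between these samples only.

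In hedgehog signalling a secreted ligand binds the receptor Patched 1. Patched 1 without ligand holds Smoothened inactive, and ligand binding releases that hold, which activates the Gli transcription factors. Ptch1 and Hhip are themselves transcribed in response to the signal, and their proteins bind ligand and limit its spread, whereas transcription of Cdon, Boc and Gas1 is lowered by the signal in the mouse neural tube. In the embryonic kidney Shh is made by the epithelium of the ureter and the collecting duct stalks, and the mesenchyme around it responds. Loss of Smo in stroma thus removes the response downstream of all 9 proteins in stromal cells, and the comparison asks whether the genes at the surface changed with it.

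Related members can share reads where their sequences are identical. The longest run of coding bases that a pair of related genes shared exactly is shown for the ligands and for the Cdon and Boc pair, in capitals because every base is shared.
Shh and Ihh: ATGAACCAGTGGCCTGG
Shh and Dhh: TTCGACTGGGTCTACTA
Ihh and Dhh: GCTGCGGGCCGGGCCG
Cdon and Boc: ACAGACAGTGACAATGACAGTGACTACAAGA
These runs were 16 or 17 bases long among the ligands and 31 bases between Cdon and Boc. They were read from the longest coding sequence of each gene in GENCODE vM21 (GRCm38), 1311 bases for Shh, 1233 for Ihh and 1188 for Dhh. The Shh and Ihh run covered coding bases 343 to 359 of Shh, and the Shh and Dhh run covered bases 511 to 527 of both genes. The Cdon and Boc run covered coding bases 2593 to 2623 of Cdon and 2248 to 2278 of Boc. Overlapping genes were a different limit. Exons of Shh shared 446 bases with the antisense gene 9530036O11Rik, whose mean was 1.91 normalised counts. Exons of Dhh shared 546 bases with the same-strand gene Rhebl1 and 1107 bases with the opposite-strand gene Gm49442. Exons of Gas1 shared 589 bases with the opposite-strand gene Gm48488. The deposited counts carry the mark Unstr in their name, which may stand for unstranded, and the labels do not spell out whether strand was used in counting. Reads in those stretches could therefore not be assigned with certainty.

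Levels are normalised read counts, in which each library's gene counts were scaled by its own size factor. Libraries held 10288191 to 13494079 reads in genes. A log2 fold change compares mutant with control after adding 1 to the normalised counts. It was tested with limma, and p-values were adjusted by the Benjamini-Hochberg method over the 13692 genes whose mean was at least 10. The groups stood as labelled, since Smo averaged 537 ± 20.01 in mutant and 2241 ± 66.4 in control kidneys (SD, n = 4 each, log2 fold change -2.06, limma adjusted p = 1.87e-10). Gli1, the transcription factor gene that reports the pathway's activity, fell to 259 ± 29.4 in mutant kidneys, against 413 ± 36.2 in control kidneys (limma adjusted p = 0.0102). Markers of renal compartments were well detected in all libraries, with the nephron progenitor gene Six2 between 1944 and 2255 in mutants and between 1499.9 and 1893 in controls. The 8 nephron progenitor markers summed to 11100.0 to 11829 in mutants and 8830.2 to 10138 in controls, without overlap, and 2 of the 8 were called higher. The largest part of the sum was Spock2. Taken singly, Six2, Cited1, Meox2, Itga8 and Spock2 did not overlap between groups, whereas Eya1, Meox1 and Crym did. The marker lists were chosen with earlier results of these data known. Markers of neighbouring tissues differed between libraries. The sum of 10 skeletal muscle markers was 194, 1773, 87.4 and 261 in mutants 1 to 4, against 542, 3269, 254 and 94.02 in controls 1 to 4, and 0 of the 8 tested were called. The sum of 5 liver markers was 712 in control 1 and 10.7 to 139 in the other libraries. By Xist and Ddx3y, 1 of 4 libraries in each group was male, mutant 2 and control 4.

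None of the 9 genes changed at an adjusted p under 0.05. Of the 7 members that passed the filter 0 were called, where 0.570% of all tested genes were, 0.446% lower and 0.124% higher. At an unadjusted limma p under 0.05 there were 2 lower members, Ptch1 and Cdon, and 0 higher, against 8.70% of all tested genes, 5.17% lower and 3.53% higher. Other tools differed on 1 member: edgeR called 0 members and 0.577% of all tested genes, while DESeq2 called Ptch1 (adjusted p = 0.0106) and 1.56% of the genes it tested. The authors' deposited table called 0 members and 0.614% of the genes with an adjusted p-value. The median log2 fold change of the 7 members was -0.23, against 0.0037 over all tested genes, and it ranged from -0.48 for Ptch1 to 0.14 for Gas1. The 4 mutants lay apart from the 4 controls in 1 member, Ptch1, where 5.31% of all tested genes had groups that did not overlap, 3.00% with mutants lower and 2.31% with mutants higher.

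**Figure D1:**
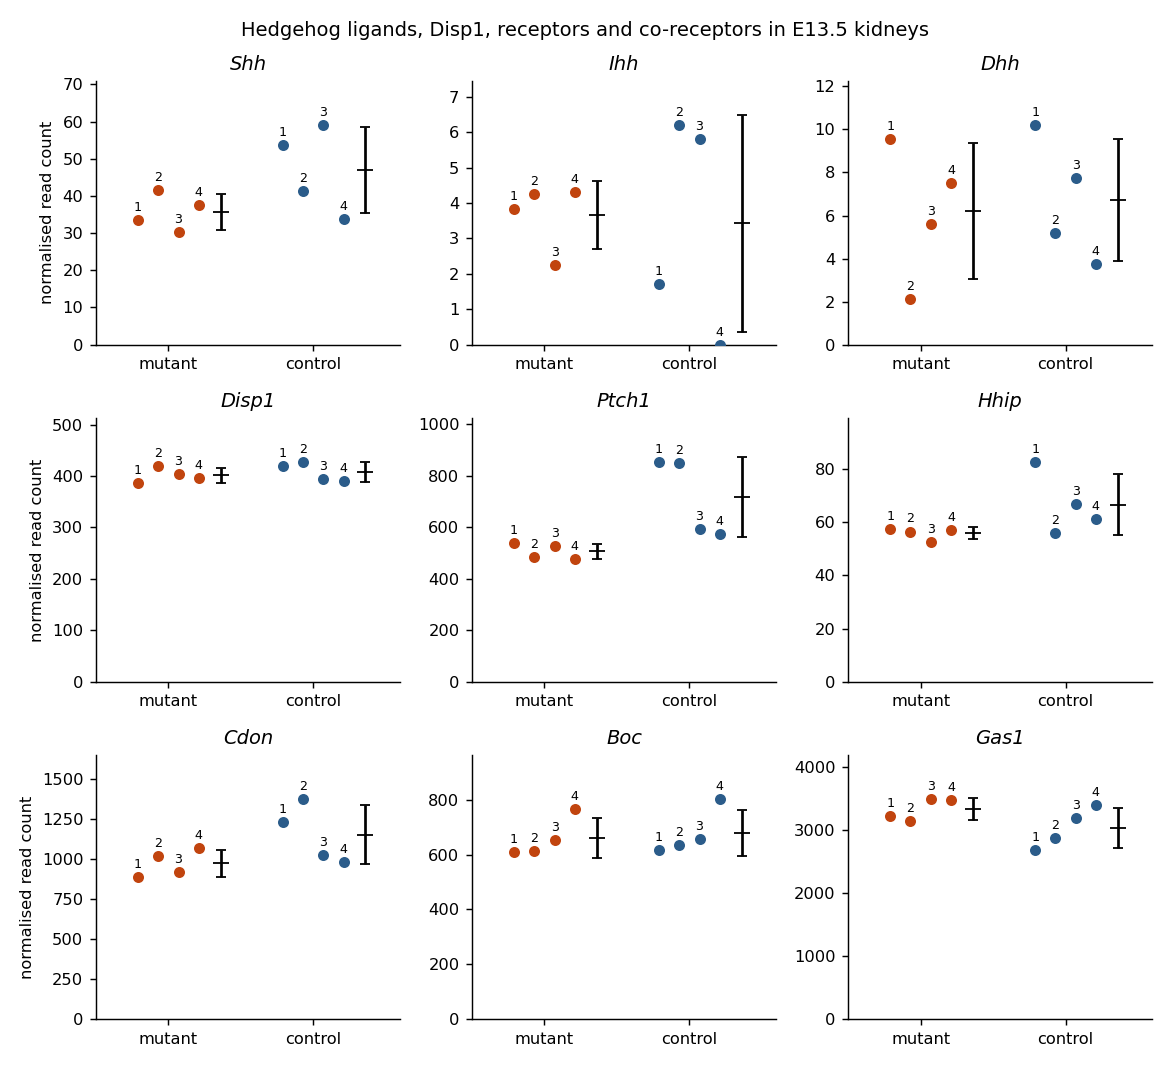
Normalised read count (vertical axes, each from 0) of the 9 genes in mutant (left, orange) and control (right, blue) libraries. Points carry the sample number, and bars show mean and SD with n = 4; the groups are apart for Ptch1 alone, where controls 1 and 2 stand at 852 and 849 and the highest mutant at 538 lies below the lowest control at 574.

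Per length of exon, the order of the group means was the same in mutants and controls. Gas1 was the most abundant, with 1126 ± 59.4 normalised counts per kb in mutant and 1027 ± 108 in control kidneys. Boc and Cdon followed, at 148 ± 16.5 and 126 ± 10.7 per kb in mutants, against 152 ± 19.02 and 149 ± 23.97 per kb in controls. Boc stood above Cdon in 6 of 8 libraries, so this pair was not ordered beyond the spread between libraries. Disp1 came next with 76.8 ± 2.67 per kb in mutants and 78.04 ± 3.57 in controls, then Ptch1 with 35.7 ± 2.12 and 50.5 ± 10.9. Shh followed with 12.5 ± 1.73 in mutants and 16.5 ± 4.03 in controls, and Hhip with 6.15 ± 0.237 and 7.34 ± 1.27. Dhh and Ihh were the lowest, at 1.41 ± 0.717 and 1.199 ± 0.317 per kb in mutants, against 1.53 ± 0.648 and 1.13 ± 1.004 in controls. Dhh exceeded Ihh in 5 of 8 libraries. Every other pair of neighbours in this order was separated in all 8 libraries. Gas1 made up 80.4 ± 1.199% of the summed co-receptor level per kb in mutants and 77.2 ± 2.28% in controls, and the groups overlapped. Shh made up 82.7 ± 4.75% of the summed ligand level per kb in mutants and 86.7 ± 4.81% in controls.

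**Figure D2:**
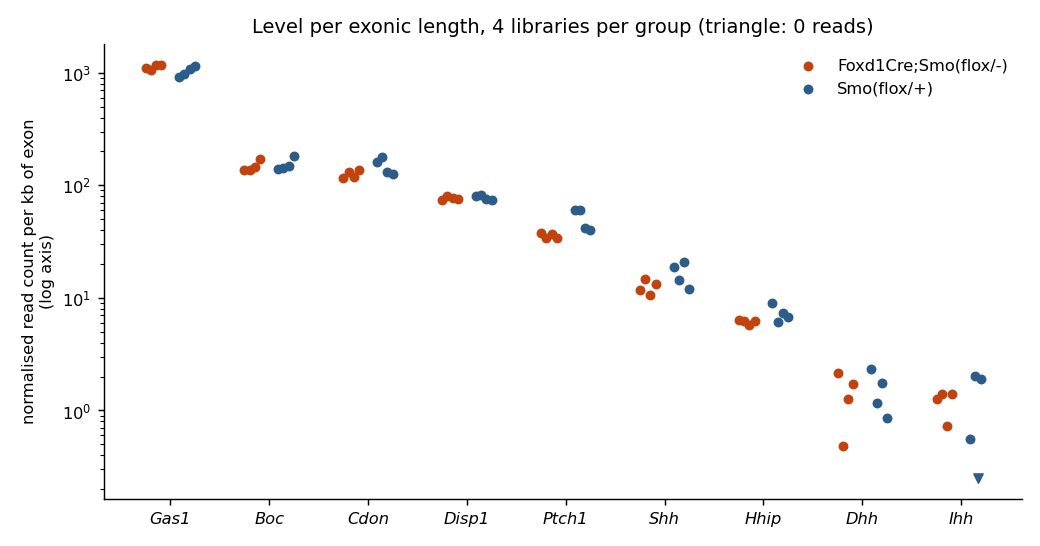
Normalised read count per kb of exon on a log axis for the 9 genes, ordered by the control mean, with mutant libraries (orange) left of control libraries (blue). Gas1 lies at 908 or more in every library and Dhh and Ihh at 2.32 or less; the triangle marks control 4, where Ihh had 0 reads.

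The ligand genes were the least expressed role, and Shh was the only one that passed the filter. Shh encodes Sonic hedgehog (chromosome 5, 28456815 to 28467256, minus strand). It had 33.4, 41.5, 30.2 and 37.6 normalised counts in mutants 1 to 4, against 53.6, 41.3, 59.1 and 33.8 in controls 1 to 4. Controls 1 and 3 were above every mutant, controls 2 and 4 lay within the mutant range, and the groups overlapped. The means were 35.7 ± 4.92 in mutants and 47.0 ± 11.5 in controls (n = 4 each), a log2 fold change of -0.36 (SE 0.200, limma adjusted p = 0.697). The 95% interval ran from -0.80 to 0.07, that is from 0.573 to 1.05 times the control level. These values rest on 27 to 39 reads in a mutant library and 36 to 63 in a control library. The epithelium that makes Shh was represented in all libraries: 12 markers of ureteric trunk and collecting duct epithelium summed to 6933 to 9594 in mutants and 6169 to 8842 in controls, with 0 of 11 tested markers called, and Aqp2, a marker of the mature collecting duct, stood at no more than 1.07. In bulk tissue, fewer cells of a type and less RNA per cell cannot be told apart. The urothelial marker Upk2 was at no more than 1.06 in any library, and the 9 urothelial markers summed to 131 to 200.5 in mutants and 143 to 225 in controls. The largest part of that sum was Fgfr3, at 102 to 145 in mutants and 115 to 164 in controls.

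Ihh encodes Indian hedgehog, known from growing cartilage, and lies on chromosome 1 from 74945315 to 74951672. It had 4, 4, 2 and 4 reads in mutants 1 to 4, against 2, 6, 6 and 0 in controls 1 to 4. The means were 3.65 ± 0.967 normalised counts in mutants and 3.43 ± 3.06 in controls, close to the level of 3 reads, which was 2.55 to 3.36 normalised counts per library. An exact two-sided permutation test over the 8 libraries gave p = 0.83. The 0 reads in control 4 allow up to 2.82 normalised counts there, and a difference in Ihh was not detectable at this depth. Of the cartilage markers, Acan was at no more than 4.26 and Col10a1 at no more than 1.94 in any library. The 6 cartilage markers in the table summed to 983 to 1378 in mutants and 847 to 1148 in controls, mostly from Col2a1, and 0 of the 2 tested were called.

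Dhh encodes Desert hedgehog, known from Sertoli cells, Schwann cells and endothelium (chromosome 15, 98891152 to 98898540). It had 9.55, 2.13, 5.601 and 7.52 normalised counts in mutants 1 to 4, against 10.2, 5.17, 7.75 and 3.76 in controls 1 to 4. The groups overlapped over most of their range, with means of 6.199 ± 3.16 in mutants and 6.72 ± 2.85 in controls (exact two-sided permutation p = 0.83, n = 4 each). The lowest level was in mutant 2 and the next in control 4, the libraries that were male. Gonadal markers were low in all libraries, with Amh at no more than 5.64, Insl3 and Cyp17a1 at no more than 1.06 each, and a sum over 8 markers, mostly Star, of 76.3 to 90.7 in mutants and 72.3 to 83.7 in controls. The Schwann cell marker Sox10 was between 1.12 and 10.6 in mutants and between 0.969 and 12.4 in controls. Endothelial genes were plentiful, with Pecam1 between 903 and 1018 in mutants and between 899.8 and 1085 in controls. Rhebl1 overlaps 12.4% of the exonic length of Dhh, and reads there could have been counted for Dhh, for Rhebl1 or for neither. If strand was not used in counting, the same holds for Gm49442, which overlaps 25.2% of that length.

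Disp1, which encodes the membrane protein Dispatched 1 that releases lipid-modified ligand from the cell that makes it, was the steadiest of the 9. It lies on chromosome 1 from 183086266 to 183221522. Its level was 386, 419, 404 and 395 in mutants 1 to 4, against 420.2, 427, 394 and 389 in controls 1 to 4. Libraries of a group differed by no more than 1.10 times, and the groups overlapped almost fully. The log2 fold change was -0.02 (SE 0.055, limma adjusted p = 0.951), and its 95% interval of 0.905 to 1.07 times the control level was the narrowest among the 7 tested members.

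Ptch1, the receptor gene, had the smallest p of the 9 and ranked at 243 among all tested genes. It lies on chromosome 13 from 63508328 to 63573598, minus strand. Its level was 538, 483, 526 and 478 in mutants 1 to 4, against 852, 849, 591 and 574 in controls 1 to 4. All mutants were below all controls, and the controls fell into a high pair, 1 and 2, and a low pair, 3 and 4, while the mutants varied little. The means were 506 ± 30.1 in mutants and 716 ± 155 in controls (SD, n = 4 each), so mutants had 70.7% of the control level. The log2 fold change was -0.48 (SE 0.126, limma adjusted p = 0.164), with a 95% interval from 0.594 to 0.871 times the control level. An exact two-sided permutation test over the libraries gave p = 0.0286, the smallest that this design allows. The authors' deposited table gave Ptch1 an adjusted p-value of 0.460.

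The size of the Ptch1 difference varied with the controls kept in the fit. Without controls 1 and 2 the log2 fold change was -0.20 (limma adjusted p = 0.367). Without control 4 it was -0.57 (limma adjusted p = 0.0350), past the threshold. Controls 1 and 2 were the highest controls, so leaving them out had to shrink the difference. Control 4 was the lowest, so leaving it out had to enlarge the difference. The log2 fold change was -0.36 without both libraries numbered 2 (limma adjusted p = 0.682). It was -0.44 when the fit held a score of the muscle markers (limma adjusted p = 0.133). Between the low pair of controls and the highest mutant, mutant 1 at 538, the gap was small beside the gap between the control pairs. Skeletal muscle markers summed to 542 and 3269 in the high controls, and to 254 and 94.02 in the low ones. Mutant 2 had a muscle sum of 1773 and one of the lower Ptch1 levels. Beyond the fit with the muscle score, the parts of muscle and of liver tissue in the Ptch1 level were not tested.

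**Figure D3:**
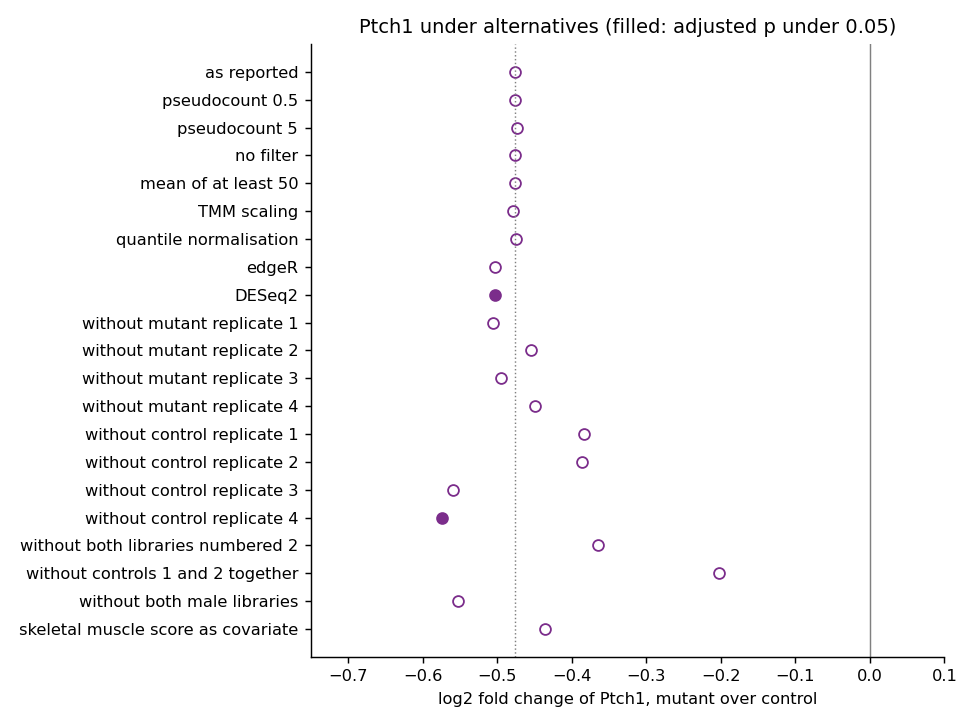
Log2 fold change of Ptch1, mutant over control (horizontal axis), as reported (top, dotted line) and under other tests, scalings, filters and sets of libraries. Filled points have an adjusted p under 0.05, which among the settings plotted DESeq2 and the fit without control 4 reached. The value lies between -0.57 and -0.20 throughout. A fit with a term for sample number is not plotted and is given with the alternatives near the end.

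A promoter sequence is shown for Ptch1, since it was the member nearest to a call and is transcribed in response to the signal. The window from RefSeq (GRCm38.p6, chr13:63565686-63565985, minus strand) runs from 250 bases before to 50 bases after a transcript start that lies 7863 bases inside the outermost start of the gene. The capitals mark the letters GGGCGG, a GC box, which was searched on both strands and found 91 bases before the start.
Ptch1 promoter: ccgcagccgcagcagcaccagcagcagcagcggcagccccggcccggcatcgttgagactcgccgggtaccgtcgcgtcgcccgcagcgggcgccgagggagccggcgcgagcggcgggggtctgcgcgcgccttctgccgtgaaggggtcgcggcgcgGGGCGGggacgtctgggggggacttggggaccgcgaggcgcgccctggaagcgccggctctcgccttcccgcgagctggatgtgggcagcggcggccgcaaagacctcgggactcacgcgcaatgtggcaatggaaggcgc
The Gli motif GACCACCCA, also searched on both strands, matched in 0 of 8 windows of the 7 members listed by RefSeq, also with 1 mismatch allowed. Of 32851 mouse promoter windows of the same length, 0.253% held it exactly, 6.74% held it with up to 1 mismatch and 35.7% held a GC box. A GC box was present in 5 of the 8 windows, those of Ptch1, Hhip, Gas1, Ihh and Dhh. The Ptch1 window was the richest in G and C among them, at 76.3%.

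Hhip encodes a membrane-bound and secreted protein that binds ligand without passing on a signal (chromosome 8, 79965851 to 80058006). It had 57.3, 56.4, 52.6 and 56.9 normalised counts in mutants 1 to 4, against 82.5, 55.8, 66.8 and 61.1 in controls 1 to 4. The mutants lay within a narrow range that 3 of 4 controls exceeded, and control 2 fell inside it. The means were 55.8 ± 2.15 in mutants and 66.6 ± 11.5 in controls, with a log2 fold change of -0.24 (SE 0.142, limma adjusted p = 0.739) and a 95% interval from 0.684 to 1.05 times the control level. Without control 1, the highest library, the log2 fold change was -0.13 (limma adjusted p = 0.888), a reduction by more than 1.5 times. Leaving out the highest control had to shrink the difference. Both members that respond to the signal, Ptch1 and Hhip, thus had their lower means in mutants, and neither was called. Ptch1 exceeded Hhip per kb by 5.81 ± 0.477 times in mutants and 7.0 ± 1.86 times in controls, with overlapping ranges.

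**Figure D4:**
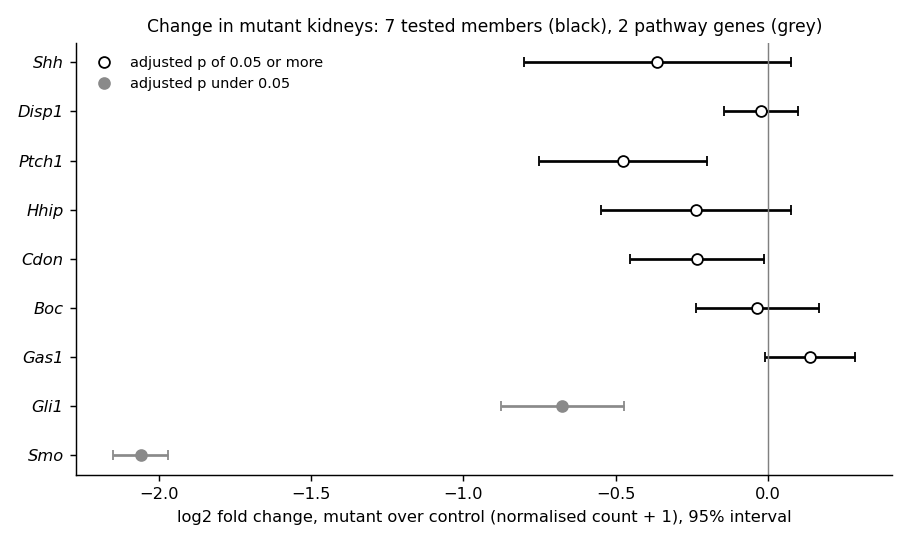
Log2 fold change of mutant over control with its 95% interval (horizontal axis) for the 7 members that passed the filter, in black, and for Gli1 and Smo in grey. Filled points have a limma adjusted p under 0.05; the intervals of Ptch1 and Cdon lie below 0 without adjustment, and Gas1 alone has a positive value.

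The co-receptor genes did not move as a group. Cdon encodes a transmembrane co-receptor with immunoglobulin and fibronectin repeats that is also known from muscle differentiation (chromosome 9, 35421128 to 35507652). Its level was 889, 1018, 919 and 1065 in mutants 1 to 4, against 1233, 1373, 1022 and 978 in controls 1 to 4. As for Ptch1, controls 1 and 2 were the highest libraries, and controls 3 and 4 lay within the mutant range. The means were 973 ± 82.8 in mutants and 1152 ± 185 in controls, with a log2 fold change of -0.23 (SE 0.101, limma unadjusted p = 0.0401, adjusted p = 0.534). Without controls 1 and 2 it was -0.04 (limma adjusted p = 0.907), and without control 2 it was -0.14 (limma adjusted p = 0.847). As these were the highest controls, leaving them out had to shrink the difference.

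Boc, the relative of Cdon that shares its domain layout, lies on chromosome 16 from 44485049 to 44558897. Its level was 609, 614, 653 and 767 in mutants 1 to 4, against 617, 637, 657 and 803 in controls 1 to 4. Sample 4 was the highest of each group, and the groups overlapped almost fully. The means were 661 ± 73.3 in mutants and 678 ± 84.7 in controls, with a log2 fold change of -0.04 (SE 0.092, limma adjusted p = 0.954) and a 95% interval from 0.848 to 1.12 times the control level.

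Gas1, which encodes a co-receptor anchored in the membrane by a lipid tail, was the only tested member with a positive fold change. It is a gene of 2961 exonic bases on chromosome 13 from 60174405 to 60177365. Its level was 3229.5, 3143, 3491 and 3477 in mutants 1 to 4, against 2689, 2875, 3192 and 3403 in controls 1 to 4. Controls 1 and 2 were the lowest of the 8 libraries, and controls 3 and 4 lay within the mutant range. The means were 3335 ± 176 in mutants and 3039.6 ± 319 in controls, with a log2 fold change of 0.14 (SE 0.067, limma adjusted p = 0.622) and a 95% interval from 0.993 to 1.22 times the control level. Without controls 1 and 2 the log2 fold change was 0.02 (limma adjusted p = 0.960), and without control 1 it was 0.08 (limma adjusted p = 0.828). As these were the lowest controls, leaving them out had to shrink the difference.

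Controls 1 and 2 therefore held the highest Ptch1 and Cdon levels and the lowest Gas1 levels of all libraries. In control 1 Ptch1 stood at 139%, Cdon at 116% and Gas1 at 84.4% of its own mean over the 8 libraries, and in control 2 at 139%, 129% and 90.2%. In controls 3 and 4 the same genes stood between 92.1% and 107% of their means. Across the 8 libraries, which share their size factors and their groups, the Pearson correlation of log2 levels was 0.81 between Ptch1 and Cdon (Spearman 0.45) and -0.86 between Ptch1 and Gas1 (Spearman -0.69), as a description. The ratio of Gas1 to Ptch1 per kb was 28.8 to 34.8 in mutants and 15.1 to 28.4 in controls, ranges that do not overlap. This ratio was chosen after the levels had been seen and was given no test.

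**Figure D5:**
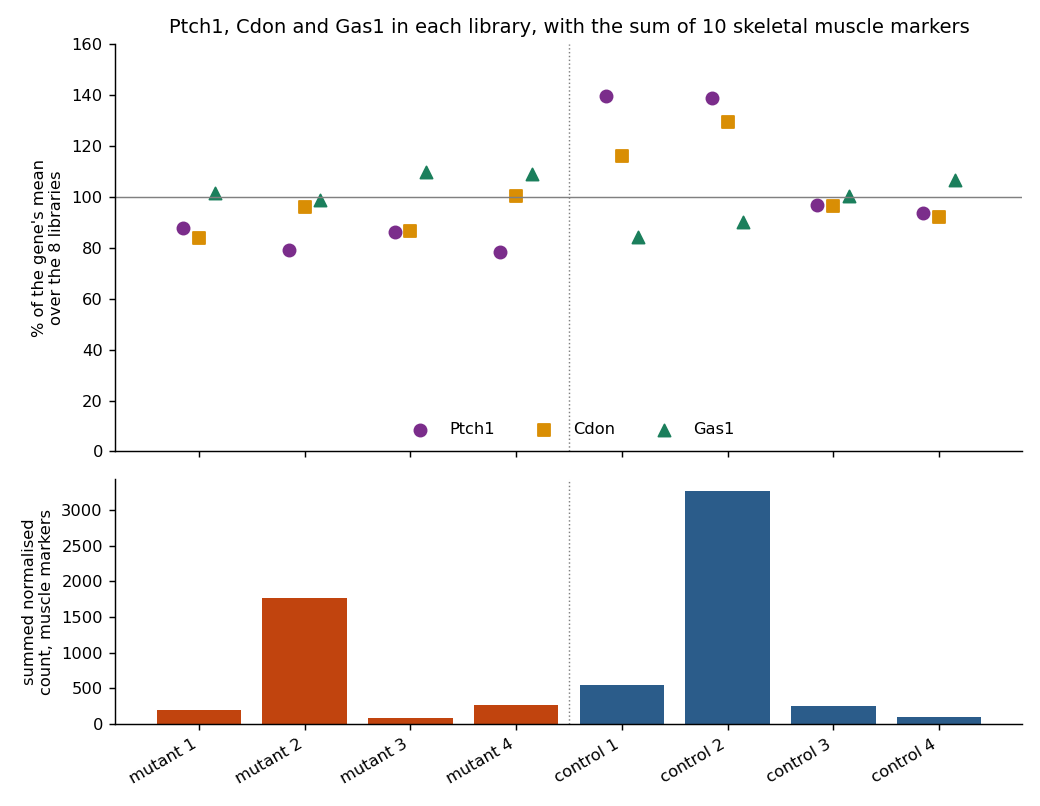
Upper panel: level of Ptch1 (circles), Cdon (squares) and Gas1 (triangles) in each library as a percentage of the gene's mean over the 8 libraries; mutants are left of the dotted line and controls right of it. Lower panel: summed normalised count of 10 skeletal muscle markers in the same libraries, highest in control 2 at 3269 and mutant 2 at 1773. Ptch1 is high in controls 1 and 2 and low in mutant 2.

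The tested genes most like each member over the 8 libraries were named by Pearson correlation of log2 levels, again as a description. As they were chosen for that likeness, a pattern shared with the member is no separate result. For Cdon they were Antxr1 (0.99), Thbs2 (0.99) and Dlk1 (0.98). Thbs2, which encodes the matrix protein thrombospondin 2, stood at 117, 239, 142 and 220.2 in mutants 1 to 4, against 393, 577, 213 and 203 in controls 1 to 4. Dlk1, a gene of mesenchymal precursors, stood at 933, 1690.03, 985 and 1533 in mutants 1 to 4, against 2571, 3371, 1439.7 and 1075 in controls 1 to 4. Both were highest in controls 1 and 2, as Cdon was. For Ptch1 they were Zfp874a (0.97), Ephx2 (0.96) and Ankrd46 (0.96). Zfp874a, a zinc finger gene, stood at 65.9, 65.0, 75.05 and 67.7 in mutants 1 to 4, against 125.04, 125.1, 73.6 and 70.5 in controls 1 to 4, so it had the same high pair of controls as Ptch1. For Shh they were Ubl4 (0.97), Tekt2 (0.94) and Uaca (0.94), and for Hhip they were Psmg3 (0.95), Lipa (0.94) and Sept6 (0.94). For Disp1 they were Tnxb (0.97), Fcgr3 (0.95) and Htra3 (0.95). For Boc they were Mfsd10 (0.98), Smarcad1 (0.95) and Fndc3a (0.95), and for Gas1 they were Qtrt1 (0.99), Eya4 (0.97) and Prmt1 (0.96). None of these 21 genes had a limma adjusted p under 0.05.

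Of 48 other pathway genes tested, 4 fell and 0 rose by limma's adjusted p, where 0.570% of all tested genes were called. The 4 include Smo, which the genotype targets. The lists were chosen with earlier results of these data known, so the comparison with all genes was not independent. Gli1 stood on both the transducer and the target list. Of 8 tested genes on the list for ligand processing and release 0 were called, with a median log2 fold change of -0.06. Scube1, whose family encodes secreted proteins that help release ligand, was at 305 ± 74.5 in mutants and 489 ± 134 in controls (limma adjusted p = 0.221). Dlk1 (limma adjusted p = 0.647) and Gpc4 (limma adjusted p = 0.770) were next by p on the list. Dlk1, described above as a gene of mesenchymal precursors, is included in the list's count and median. No role of Dlk1 in ligand release was examined here. Of 9 other genes at the level of the receptor, 1 fell, Smo itself, with a median over the list of -0.05. The glypican gene Gpc3 was at 8729 ± 499.7 in mutants and 9681 ± 292 in controls (limma adjusted p = 0.198). Of 19 signal transducers 1 fell, Gli1, with a median of -0.01, and Arrb1 (limma adjusted p = 0.293) and Cul3 (limma adjusted p = 0.711) were next by p. Of 14 tested targets outside the 9 members 3 fell, Gli1, Ccnd2 and Igfbp6, with a median of -0.24, and Ccnd2 and Igfbp6 had limma adjusted p-values of 0.0309 and 0.0437. Foxd1, which marks the stromal cells that express the Cre, was at 593 ± 137 in mutants and 1477 ± 473 in controls (log2 fold change -1.29, limma adjusted p = 0.0251). The Foxd1 call was lost without mutant 1, 2 or 3 or control 3 (limma adjusted p = 0.0719 to 0.112) and without both libraries numbered 2 (limma adjusted p = 0.124). The Gli1 call was lost without control 3 (limma adjusted p = 0.0522) and without both libraries numbered 2 (limma adjusted p = 0.0689). The sum of 10 cortical stroma markers was 17976 to 21500.4 in mutants and 23328 to 26151 in controls, with 2 of the 10 called lower. The part of this sum, and of the nephron progenitor sum that was higher in mutants, in the members' levels was not tested.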

How the data were processed

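Poly(A)-selected RNA was sequenced from 500 ng per library with a TruSeq kit, per the labels' protocols. The submitters' processing notes name the build mm10 (GRCm38) and the tools TopHat2 (2.0.12), HTSeq and DESeq2 (1.4.5), with no annotation named. The authors deposited 1 table of normalised counts (signal), with their group means, ratio (fold change), log2 ratio and p-values, per the file headers. Whole reads were recovered from the deposited signal (100% of values within 0.01 read).

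Values were tested as log2(value + 1) with limma 3.58.1 (intensity trend, R 4.3.3), two-sided, genotype as the single term, over 13692 genes with a mean of at least 10, with Benjamini-Hochberg adjustment at 0.05. Ihh and Dhh, under that filter, had exact permutation tests. edgeR 4.0.16 and DESeq2 1.42.0 on recovered reads were alternatives. A count test was not the main one because the deposited values are normalised. The steps were tested on simulated data. Exonic lengths came from GENCODE vM21 and promoters from RefSeq GRCm38.p6 (7 of 9 members matched). Figures were drawn with matplotlib 3.10.9.

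The members and the lists were chosen with earlier results of these data known. The genes named are the 9 members, Smo, Gli1 and Foxd1, the called or 3 lowest-p genes of each pathway list and the 3 genes most correlated with each tested member. A gene that the rule names is not reported here. The ratio of Gas1 to Ptch1 and the chromosome counts were added after values were seen. Alternatives covered pseudocount, filter, scaling, tool, libraries left out, a replicate block and a muscle score. Intervals on 0 reads cover counting error only.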

Additional observations from a re-analysis of the deposited data

Results flagged for a closer look

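In groups of 4 libraries, the gap between an extreme library and its nearest neighbour was set against the group's range for 21 genes, the 9 members among them. Of 42 groups 1 stood out, where chance flags about 1 in 20, or 2.1. It was Igfbp6, a target of the pathway, at 37.6 normalised counts in control 4 against 101 to 108 in the other controls. In none of the 9 members did a single library stand apart in this way.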

How the results depend on the processing

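Of 170 values of the 9 members under alternatives, 156 kept their direction and side of the threshold, 3 passed it and 11 changed sign. Ptch1 was the 1 member called by DESeq2 (log2 fold change -0.50), with the replicate block (-0.48, adjusted p = 0.0372) and without control 4, and leaving out 1 library gave it -0.57 to -0.38 and 0 to 1 members called. Leaving out 1 library moved the difference in mean normalised count from -0.918 to 1.15 for Ihh and from -1.64 to 0.834 for Dhh, and the log2 fold change of Boc from -0.11 to 0.048. Without both male libraries Ihh was at -1.12 and Boc at 0.081. Dhh was at 0.316 without both libraries numbered 2 and at 0.444 without controls 1 and 2, where Disp1 was at 0.033. With no filter, limma gave Ihh and Dhh adjusted p-values of 0.890 and 0.953. The number of genes called over all was 78, 79 by edgeR, 214 by DESeq2, 232 with the replicate block, 18 to 183 with 1 library left out, 2 without both libraries numbered 2, 29 without controls 1 and 2 and 146 without both male libraries. Of the other pathway genes 4 were called, 9 by DESeq2, 9 with the replicate block, 1 to 7 with 1 library left out and 1 without both libraries numbered 2. Deviations of same-numbered libraries correlated at 0.32, 0.29, 0.29 and 0.06 for numbers 1 to 4, while mutant 4 correlated best with control 3 (0.10) and control 4 with mutant 3 (0.15). With 1 of 4 pairs under 0.1 and no shared litter or day in the labels, pairing was not taken as given, although the other 3 pairs correlated best with their own number. For Ihh and Dhh, which were under the filter, TMM scaling gave 0.217 and -0.540, and there is no value for other pseudocounts, a higher filter, quantile normalisation, edgeR, DESeq2, the block or the muscle score; Shh has none with a mean of at least 50. The cause of these changes was not tested. Counts of 0 to 12 reads limit what can be said of Ihh and Dhh.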

Other observations

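Ptch1 and Gas1 lie 3.33 Mb apart on chromosome 13, and Foxd1, the gene whose promoter drives the Cre, lies 34.8 Mb from Ptch1 on the same chromosome. Zfp874a, the gene whose levels were most like those of Ptch1, lies 3.85 Mb from it. Among the 50 tested genes most like Ptch1, 46 had a position, and 3 of these (6.52%) were on chromosome 13, all within 20 Mb of Ptch1 (Zfp874a, Zfp429 and Gm16907), where 3.73% of all tested genes with a position were on that chromosome. For Disp1 it was 3 of 48 on chromosome 1, also all within 20 Mb (Fcgr3, Mgst3 and Hhat), where 5.75% of all tested genes lay. For Cdon it was 3 of 49, none of them within 20 Mb, where 5.75% of all tested genes lay on its chromosome. For Boc it was 2 of 44 (3.06% of all), with 1 within 20 Mb, Lrch3. For Hhip it was 1 of 45 (5.12% of all), Dand5, within 20 Mb. For Gas1 it was 1 of 47 (3.73% of all), not within 20 Mb, and for Shh 0 of 45 (6.28% of all). These counts were chosen after the position of Zfp874a had been seen. No share of all tested genes within 20 Mb is set beside them.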
